A study of Rattus norvegicus with 83 samples.

Results

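Rat offspring exposed to methimazole through their dams were compared with offspring of vehicle-dosed dams at the stage labelled gestational day 21 (GD21). All libraries whose label named GD21 and methimazole (12, of which 6 at each dose) or GD21 and vehicle (6) were taken, 18 of the 83 libraries of the series. The dams were Sprague-Dawley rats of the Crl:CD(SD) stock. They received corn oil alone (vehicle), or methimazole in corn oil at 8 mg/kg body weight per day (MMI8) or 16 mg/kg body weight per day (MMI16). Dosing was by oral gavage once a day from gestational day 7, so every group shared the gavage and the oil. The other libraries came from amitrole groups and from a stage labelled pup day 16 (PD16). Polyadenylated RNA was measured by BRB-seq, in which the 3′ ends of transcripts are barcoded per sample and sequenced as a pool. The labels do not say which animals shared a litter, so a p-value here measures the spread over these samples only, which may be narrower than that over litters.

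Methimazole blocks thyroid peroxidase, the enzyme of the thyroid gland that couples iodine to thyroglobulin on the way to thyroxine (T4) and triiodothyronine (T3). T3 enters cells through membrane transporters, is made or removed there by deiodinases, and acts through the nuclear receptors encoded by Thra and Thrb. The fetal rat depends first on the hormone of its dam and late in gestation also on its own thyroid gland. In the adrenal gland, the cortex makes steroids from cholesterol and the medulla makes catecholamines from tyrosine.

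The 18 libraries carry the label testis and held the transcripts of an adrenal gland. The 12 testis genes in the table had 167 counts among 19177175, most of them from Dhh (75), which Schwann cells also express, and Rhox5 (60). The Sertoli cell gene Amh had 2 counts and Insl3 of Leydig cells had 9. The adrenal cortex markers summed to 22509 to 40342 CPM (counts scaled to a library total of 1000000) in the 18 libraries, and the adrenal medulla markers to 781 to 1615 CPM. Total counts per library ran from 507249 to 1627114, and the Y-linked gene Eif2s3y lay between 55.2 and 79.2 CPM in all 18. Albumin transcripts (Alb), which the liver makes, were at 200 CPM or above in 3 of 6 vehicle, 2 of 6 MMI8 and 2 of 6 MMI16 libraries, called liver-marked below. In bulk RNA of this kind, fewer cells of a type and less RNA per cell cannot be told apart.

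No gene was called between methimazole and vehicle at GD21. edgeR's quasi-likelihood test called 0 of 6236 genes (0%) at a Benjamini-Hochberg adjusted p under 0.05 for the 12 methimazole libraries against the 6 vehicle libraries, and the smallest adjusted p was 0.9998. DESeq2 also called 0. At an unadjusted p under 0.05 there were 138 genes (2.21%), of which 78 were higher (1.25%) and 60 lower (0.962%), where uniform p-values would give 311.8. The estimate lay past 2-fold for 7 genes (0.112%).

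The measurements bounded the difference for most genes. The 95% interval of the log2 difference lay within 2-fold in either direction for 5854 genes (93.9%) and within 1.5-fold for 3878 (62.2%). Among the 1312 genes with a mean of 100 CPM or more the interval lay within 2-fold for 97.5%, and the median standard error (SE) was 0.11. Among the 2276 genes under 20 CPM it did so for 88.7%, with a median SE of 0.25. The log2 difference had a median of 0.00 over all genes, and its 5th and 95th percentiles were -0.31 and 0.33. These intervals are not adjusted for the number of genes tested, whereas a call is. The 0 calls alone therefore do not exclude a 2-fold difference in a single gene, least of all at low CPM, where the SE was larger. The size of difference that would be called is not reported here.

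**Figure D1:**
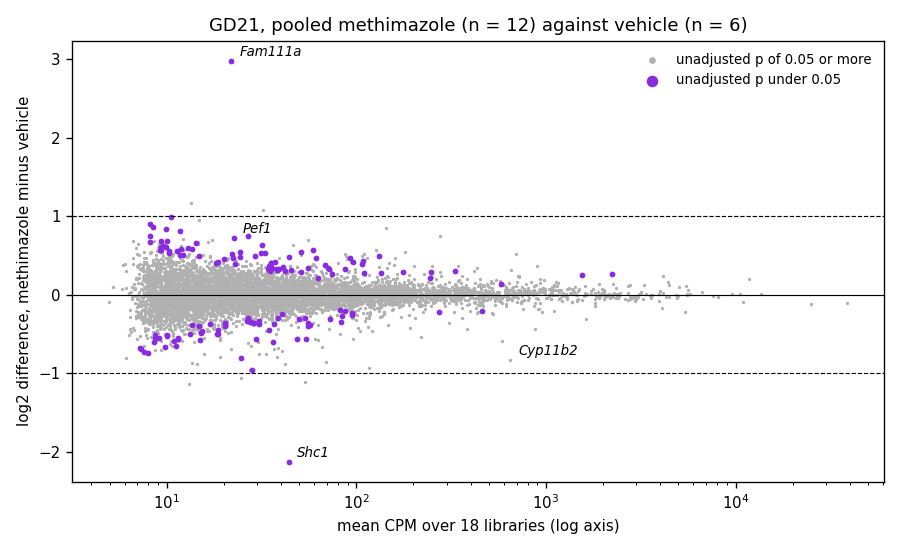
Log2 difference between the 12 methimazole and 6 vehicle libraries at GD21 (vertical axis) against mean CPM over the 18 libraries (horizontal log axis), 1 point for each of the 6236 genes tested. Dashed lines mark 2-fold, purple points are the 138 genes with an unadjusted p under 0.05, and 7 points lie past the lines.

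Pef1, which encodes a calcium-binding protein with EF-hands, had the smallest p among the genes ranked. Here and below, rankings by p took genes of at least 20 CPM and passed over symbols that are only identifiers. In vehicle libraries its lowest, median and highest values were 10.8, 15.5 and 20.3 CPM. In MMI8 they were 17.7, 27.9 and 31.5 CPM, and in MMI16 15.6, 26.6 and 35.8 CPM. All 12 methimazole libraries lay above the vehicle mean of 15.5 CPM, but the lowest of them overlapped the upper vehicle libraries. The log2 difference was 0.72 (SE 0.19, unadjusted p = 0.000727, edgeR adjusted p = 0.9998), with 0.71 at the lower dose and 0.73 at the upper. It was 0.47 among the libraries numbered 41 to 56 in the labels and 1.11 among those numbered 61 to 90. The lower range held 4 vehicle, 2 MMI8 and 4 MMI16 libraries and the upper range 2, 4 and 2. Dose and range were thus unbalanced, and every value of the upper range, here and below, rests on 2 vehicle libraries.

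Fam111a, which encodes a protease that acts at replication forks, had the largest estimate of all genes tested. Its values were 1.06, 2.73 and 7.85 CPM (lowest, median, highest) in vehicle, 4.69, 29.1 and 98.9 CPM in MMI8 and 1.49, 19.3 and 79.8 CPM in MMI16. The vehicle libraries were all low, whereas the methimazole libraries spread from the vehicle range to far above it. The log2 difference was 2.98 (SE 0.83, unadjusted p = 0.00145), and leaving out any 1 library kept it between 2.58 and 3.28. DESeq2 gave it an adjusted p of 0.310.

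Shc1, which encodes an adaptor between receptor tyrosine kinases and Ras, had the lowest estimate. In vehicle its values were 14.6, 21.3 and 277 CPM (lowest, median, highest), in MMI8 7.89, 11.2 and 102 CPM, and in MMI16 9.51, 16.0 and 22.4 CPM. The vehicle libraries 41 and 42 and the MMI8 library 69 stood far above all others, whose ranges overlapped between the groups. The log2 difference of -2.13 (SE 0.56, unadjusted p = 0.000766) was -1.39 without vehicle library 42. It was -2.78 without MMI8 library 69, -3.17 among the libraries numbered 41 to 56 and 0.04 among those numbered 61 to 90. When all 83 libraries of both stages were fitted together, Shc1 was the single gene called for pooled methimazole (1 of 6287, 0.0159%; -2.12, edgeR adjusted p = 0.000903).

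The next smallest p among the higher estimates belonged to Lmna, Abhd3, Cd9 and Smim29. Lmna, the gene of lamins A and C of the nuclear envelope, was at 17.2, 19.9 and 38.3 CPM (lowest, median, highest) in vehicle, 15.8, 29.2 and 44.6 CPM in MMI8 and 31.3, 37.8 and 71.6 CPM in MMI16. All MMI16 libraries lay above 5 of the 6 vehicle libraries, and the MMI8 libraries spanned the vehicle range. The estimate was 0.63 (SE 0.20) for pooled methimazole and 0.84 (SE 0.23, unadjusted p = 0.000899) for MMI16. Cd9, which encodes a tetraspanin of the cell surface, was at 174, 210 and 259 CPM in vehicle and 227, 283 and 358 CPM in MMI8, with an estimate of 0.29 (SE 0.10). Its MMI16 libraries (194, 238 and 302 CPM) sat mostly within the vehicle range. Estimates were 0.43 (SE 0.15) for the phospholipase gene Abhd3 and 0.45 (SE 0.16) for Smim29, whose product is a small membrane protein.

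Among the lower estimates, Ephx1, the microsomal epoxide hydrolase gene, was at 51.0, 63.7 and 94.1 CPM (lowest, median, highest) in vehicle, 30.5, 43.7 and 71.0 CPM in MMI8 and 27.0, 41.6 and 87.5 CPM in MMI16. In each methimazole group 1 library lay above the vehicle mean, and the groups overlapped. Its log2 difference was -0.56 (SE 0.20, unadjusted p = 0.00703). Slc25a25, a mitochondrial carrier of ATP and phosphate, was at 18.1, 35.8 and 50.7 CPM in vehicle, 14.9, 16.2 and 22.8 CPM in MMI8 and 10.4, 18.5 and 38.8 CPM in MMI16 (-0.80, SE 0.29). The vehicle libraries of this gene split into low and high ones, so that the methimazole ranges met the low ones. The transcription factor gene Tfcp2 (-0.57, SE 0.21), the adhesion molecule gene Vcam1 (-0.57, SE 0.21) and the vitamin C transporter gene Slc23a2 (-0.37, SE 0.14) completed these 6 genes.

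**Figure D2:**
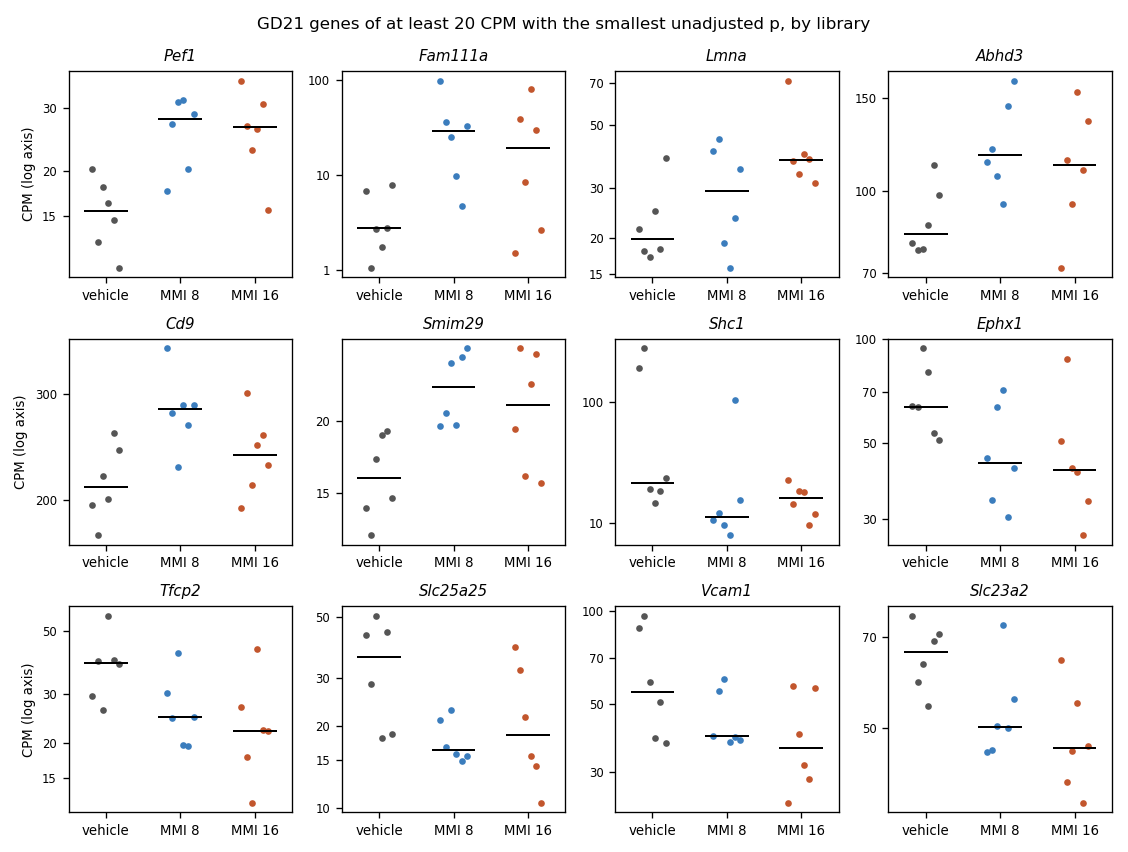
CPM (log axis) in each of the 6 vehicle, 6 MMI8 and 6 MMI16 libraries at GD21 for 12 genes, 6 in each direction. They had the smallest unadjusted p among genes with a mean of at least 20 CPM, passing over symbols that are only identifiers. Each point is 1 library and the bar is the group median. In every panel methimazole points overlap vehicle points, and in Shc1 the vehicle libraries 41 and 42 and the MMI8 library 69 stand apart.

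In no gene did all 12 methimazole libraries lie above, or all below, the 6 vehicle libraries (0 of 6236, 0%, in each direction). For MMI8, edgeR called 0 genes (0%), 175 (2.81%) had an unadjusted p under 0.05, and DESeq2 called 0. The estimate lay past 2-fold for 13 genes (0.208%), and 88.3% of the 95% intervals lay within 2-fold. The 6 MMI8 libraries all lay above the vehicle libraries for 2 genes (0.0321%), Cyb561 and Smim29, and all below for 4 (0.0641%), Dnajc17, Glrx3, Tardbp and Tnks2. These names were chosen after their values were seen. Dnajc17, which encodes a co-chaperone of the J-domain family, ran from 20.8 to 28.4 CPM in vehicle (median 21.9) and from 7.21 to 19.6 CPM in MMI8 (median 11.8), a log2 difference of -0.85 (SE 0.24, unadjusted p = 0.00137). At the upper dose it was at 13.5, 22.8 and 25.4 CPM (lowest, median, highest), so that the lowest library lay below the vehicle range and the median within it, and the estimate there was -0.15.

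For MMI16, edgeR again called 0 genes (0%), DESeq2 called 0, and 210 (3.37%) had an unadjusted p under 0.05. The estimate lay past 2-fold for 51 genes (0.818%), and 87.3% of the 95% intervals lay within 2-fold. All 18 tested liver genes, which marked single libraries, had estimates below 0 at this dose (median -0.92). How many of the 51 were liver genes was not counted. The MMI16 libraries all lay above vehicle for 8 genes (0.128%) and all below for 2 (0.0321%), Npepl1 and Rogdi. Tubb2a, a beta-tubulin gene, had the smallest p at this dose among the higher estimates of the genes ranked. It was at 118, 159 and 174 CPM (lowest, median, highest) in vehicle, 152, 161 and 190 CPM in MMI8 and 196, 210 and 228 CPM in MMI16. The MMI16 libraries lay above all libraries of the other 2 groups, and the log2 difference was 0.46 (SE 0.12, unadjusted p = 0.000414) for MMI16 and 0.12 (SE 0.12) for MMI8. Gsdma, of the gasdermin family of pore-forming proteins, went from 3.07 to 11.9 CPM in vehicle to 12.4 to 23.9 CPM in MMI16 (1.06, SE 0.29), and Hebp2, a haem-binding protein gene, from 3.67 to 10.3 CPM to 10.7 to 15.3 CPM (0.95, SE 0.27). These last 2 genes rest on few counts per library. For pooled methimazole Hebp2 had an unadjusted p of 0.00143, among the smallest of all genes, and its mean is under 20 CPM. Ninj1, which encodes a protein that ruptures the plasma membrane in dying cells, had an estimate of 0.80 (SE 0.22) at MMI16 and 0.13 (SE 0.23) at MMI8.

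Between the doses, MMI16 against MMI8, edgeR called 0 of 6236 genes (0%) and DESeq2 0, and 394 (6.32%) had an unadjusted p under 0.05. The smallest adjusted p was 0.497. The 2 dose comparisons share their vehicle libraries, so the counts above are not independent of each other.

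Genes of thyroid hormone signalling and response were examined by name. Of 23 genes of receptors, cofactors, transporters and deiodinases 8 passed the filter on low counts, and 0 were called or had an unadjusted p under 0.05. Of the 8, 4 had an estimate above 0, and their median log2 difference was -0.02, against 0.00 over all genes. The median of this list was 0.16 among the libraries numbered 41 to 56 and -0.26 among those numbered 61 to 90. Thra, the gene of thyroid hormone receptor alpha, was at 6.89, 9.59 and 13.7 CPM (lowest, median, highest) in vehicle, 1.97, 6.52 and 13.5 CPM in MMI8 and 6.52, 8.21 and 19.4 CPM in MMI16. The groups overlapped throughout, and the difference of -0.19 (SE 0.27) had a 95% interval from -0.75 to 0.36. Crym, which encodes a cytosolic T3-binding protein, had the lowest estimate of the 8. It was at 7.24, 13.9 and 21.1 CPM in vehicle, 3.98, 6.69 and 13.3 CPM in MMI8 and 1.49, 9.95 and 13.9 CPM in MMI16. Of the 12 methimazole libraries 1 lay above the vehicle mean of 13.8 CPM, the ranges overlapped, and the difference was -0.62 (SE 0.32, unadjusted p = 0.0586; interval from -1.27 to 0.02). The corepressor gene Ncor1 (0.08, SE 0.19) and Slc3a2 (0.14, SE 0.15), the heavy chain of amino acid transporters that also carry thyroid hormone, had intervals that spanned 0.

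The remaining signalling genes were too low to test. Thrb averaged 1.12 CPM in vehicle, 0.874 CPM in MMI8 and 0.510 CPM in MMI16, with libraries at 0 in every group. Dio3, the deiodinase that inactivates the hormone, had 0 counts in the MMI8 libraries, which allows up to 0.471 CPM over the group, for counting error only. Over all 18 libraries Dio3 averaged 0.242 CPM, which is below that bound, so the 0 is not read as a loss.

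Of 21 genes known to respond to thyroid hormone 7 were tested, 0 were called, and the 95% interval of each of the 7 lay within 2-fold. Their median log2 difference was 0.00. It was 0.04 over the 10 genes that passed the filter among the libraries numbered 41 to 56 and -0.50 over the 9 that did so among those numbered 61 to 90. At each dose 1 of the 7 had an unadjusted p under 0.05, Atp2a2 at MMI8 and Ucp2 at MMI16. Over all genes 2.81% had such a p at MMI8 and 3.37% at MMI16, so 1 of 7 is not read as a result. Klf9, a transcription factor gene induced by T3 in many tissues, was at 6.03, 10.6 and 19.1 CPM (lowest, median, highest) in vehicle, 3.94, 12.2 and 16.4 CPM in MMI8 and 9.20, 13.2 and 14.9 CPM in MMI16, a difference of 0.02 (SE 0.27). Cpt1a, which imports fatty acids into mitochondria, averaged 542 ± 279 CPM in vehicle, 548 ± 268 CPM in MMI8 and 551 ± 137 CPM in MMI16 (SD, n = 6 each). Both genes varied more within groups than between them. Ucp2, a mitochondrial carrier gene, was at 194, 217 and 246 CPM in vehicle and 166, 310 and 386 CPM in MMI16, with 5 of 6 MMI16 libraries above the vehicle mean and 1 below all vehicle libraries. Its estimate was 0.45 (unadjusted p = 0.00546) at MMI16 and 0.07 at MMI8. Atp2a2, the calcium pump of the endoplasmic reticulum, had -0.30 (SE 0.16) for pooled methimazole and -0.40 (unadjusted p = 0.039) at MMI8, and Me1, malic enzyme, -0.15 (SE 0.32).

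**Figure D3:**
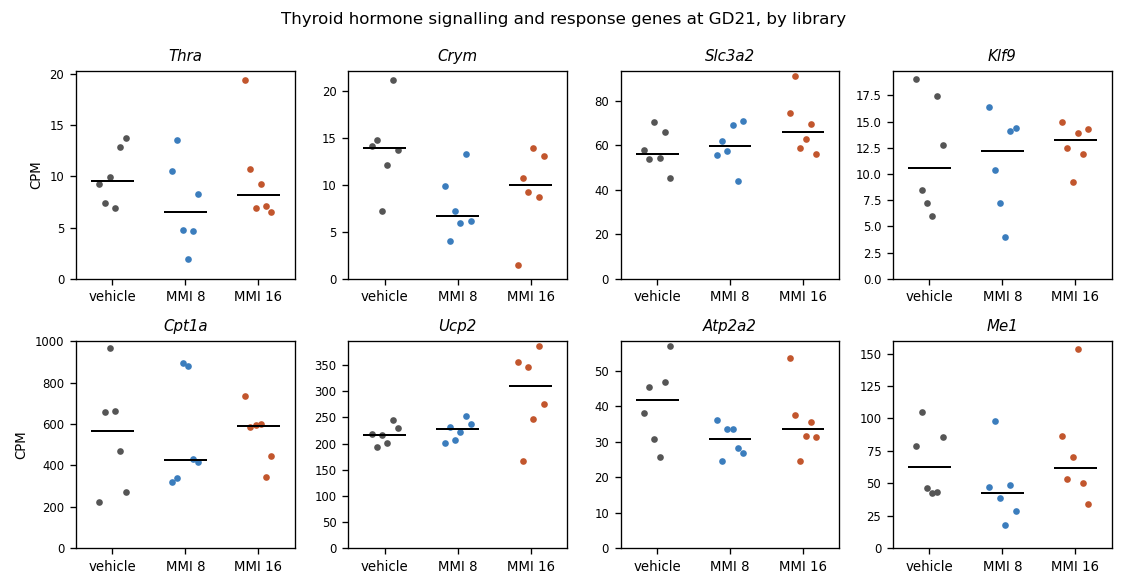
CPM in each of the 6 vehicle, 6 MMI8 and 6 MMI16 libraries for 8 genes of thyroid hormone signalling and response at GD21; points are libraries and bars are group medians. The groups overlap in all 8 panels, and 5 of 6 MMI16 libraries lie above the vehicle mean for Ucp2.

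Genes of steroid synthesis had small estimates. Of 21 such genes 17 were tested, 0 were called, and 16 of the 17 intervals lay within 2-fold, with a median log2 difference of 0.01. The median was -0.08 among the libraries numbered 41 to 56 and 0.20 among those numbered 61 to 90. Star, whose product brings cholesterol into mitochondria, was at 907, 981 and 1081 CPM (lowest, median, highest) in vehicle, 750, 1048 and 1201 CPM in MMI8 and 824, 908 and 1256 CPM in MMI16. The vehicle libraries sat inside the wider methimazole ranges, and the difference was 0.01 (SE 0.13, 95% interval from -0.24 to 0.27). Cyp11a1, the side-chain cleavage enzyme, averaged 13554 ± 2203 CPM in vehicle, 13978 ± 3010 CPM in MMI8 and 13460 ± 3304 CPM in MMI16, and Cyp21a1, the steroid 21-hydroxylase, 9512 ± 1122, 9378 ± 1238 and 9759 ± 1962 CPM (SD, n = 6 each). Cyp11b1, which completes corticosterone, had a difference of 0.10 (SE 0.22). The ACTH receptor gene Mc2r had 0.05 (SE 0.24) and its accessory protein gene Mrap -0.14 (SE 0.12).

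Cyp11b2, the aldosterone synthase gene of the outermost cortical zone, was the exception in spread. In vehicle its values were 93.5, 163 and 2804 CPM (lowest, median, highest), in MMI8 72.7, 136 and 2054 CPM, and in MMI16 57.9, 97.0 and 3129 CPM. The vehicle libraries 41 and 42, the MMI8 library 67 and the MMI16 library 48 reached 1988 CPM or more, and the other 14 libraries lay at 199 CPM or less in every group. Its difference of -0.84 (SE 1.06) ranged from -2.15 to -0.04 when 1 library was left out, so these data bound it poorly. The vehicle libraries 41 and 42 were also the 2 with high Shc1.

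Of 24 genes of cortical identity and signalling 10 were tested and 0 called, with a median of -0.08. It was 0.05 among the libraries numbered 41 to 56 and -0.19 among those numbered 61 to 90. Inha, an inhibin subunit gene of the cortex, was at 77.5, 91.2 and 130 CPM in vehicle, 39.9, 63.4 and 100 CPM in MMI8 and 54.7, 87.2 and 104 CPM in MMI16. The MMI8 libraries tended to the low end and overlapped the vehicle range, with estimates of -0.50 (SE 0.18) at MMI8 and -0.19 (SE 0.18) at MMI16.

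**Figure D4:**
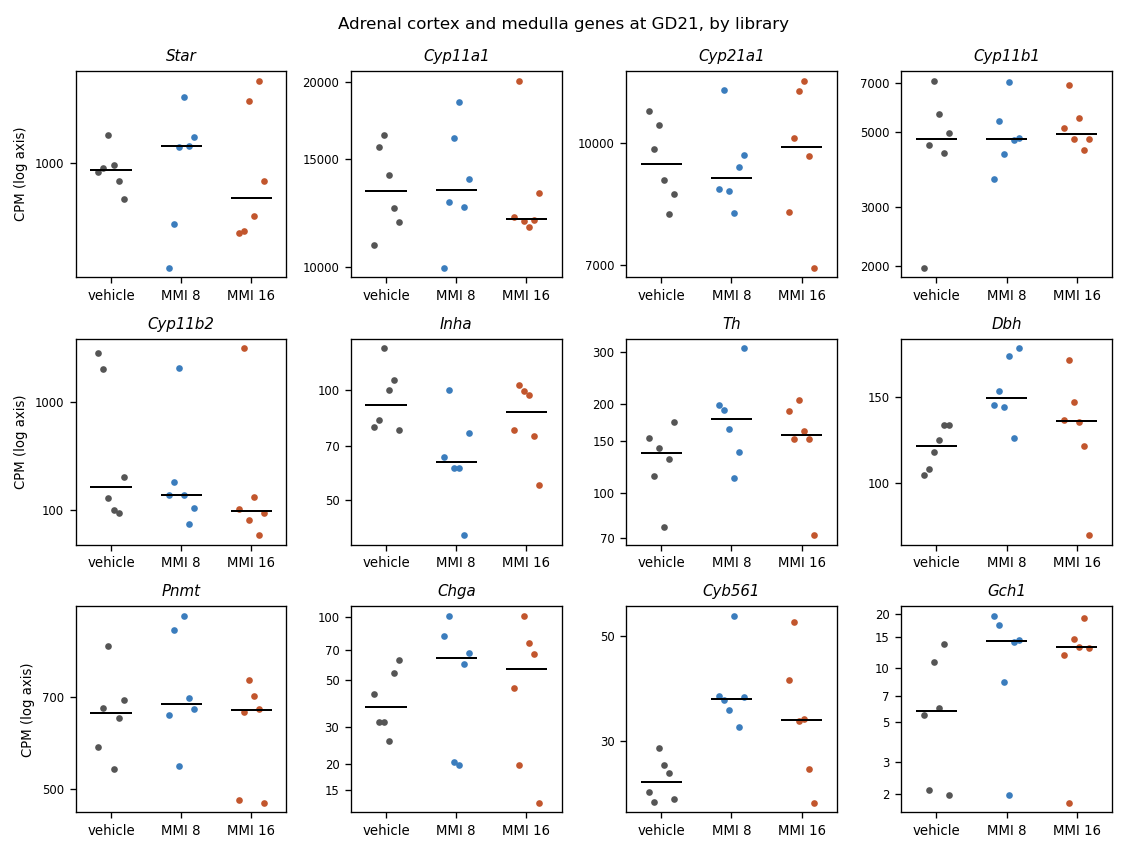
CPM (log axis) in each of the 6 vehicle, 6 MMI8 and 6 MMI16 libraries at GD21 for 6 genes of the adrenal cortex (Star to Inha) and 6 of the medulla (Th to Gch1); points are libraries and bars are group medians. Star, Cyp11a1, Cyp21a1 and Cyp11b1 overlap across groups, Cyp11b2 is at 1988 CPM or more in 4 libraries, and the 6 MMI8 libraries lie above all vehicle libraries for Cyb561.

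Genes of catecholamine synthesis and chromaffin granules had estimates mostly above 0. Of 25 genes 14 were tested, 0 were called, 3 had an unadjusted p under 0.05 and 13 had an estimate above 0. Over all genes 2.21% had such a p, and in the fit of all 83 libraries 3233 of 6287 estimates lay above 0 and 3054 below. Genes of a list were measured in the same libraries and can move together. Such counts, here and in the lists below, are therefore not counts of independent results. The median log2 difference was 0.28 for pooled methimazole, 0.39 for MMI8 and 0.20 for MMI16, against 0.00 to 0.01 over all genes. It was 0.56 among the libraries numbered 41 to 56 and 0.02 among those numbered 61 to 90, and 0.31 without the liver-marked libraries. The summed level of the listed genes was 1485 ± 205 CPM in vehicle, 1763 ± 223 CPM in MMI8 and 1541 ± 292 CPM in MMI16 (SD, n = 6 each).

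Cyb561, which passes electrons into chromaffin granules, was at 22.2, 24.5 and 29.0 CPM (lowest, median, highest) in vehicle, 32.1, 36.8 and 55.2 CPM in MMI8 and 22.2, 33.1 and 53.6 CPM in MMI16. All MMI8 libraries exceeded all vehicle libraries, while MMI16 overlapped vehicle, and the pooled difference was 0.53 (SE 0.19, unadjusted p = 0.0103). Dbh, which turns dopamine into noradrenaline, was at 104, 119 and 131 CPM in vehicle, 124, 149 and 188 CPM in MMI8 and 78.2, 134 and 179 CPM in MMI16 (0.27, SE 0.13, unadjusted p = 0.047). The MMI16 libraries of Dbh extended past both ends of the vehicle range. Gch1, the first enzyme of the cofactor that tyrosine hydroxylase needs, was at 1.96, 5.78 and 13.8 CPM in vehicle, 1.97, 14.2 and 19.7 CPM in MMI8 and 1.79, 13.1 and 19.0 CPM in MMI16 (0.99, SE 0.36, unadjusted p = 0.01). Its estimate was 0.42 without the liver-marked libraries. Th, tyrosine hydroxylase itself, had 0.38 (SE 0.20), the granule protein gene Chga 0.51 (SE 0.36), and Pnmt, which makes adrenaline, 0.03 (SE 0.11).

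The markers of other cell types were set beside these values. The 5 tested neuronal and Schwann cell genes all had estimates above 0, with a median of 0.49. That median was 1.44 among the libraries numbered 41 to 56, -0.77 among those numbered 61 to 90 and 0.04 without the liver-marked libraries. Their listed genes summed to 157 to 456 CPM in vehicle, 163 to 659 CPM in MMI8 and 181 to 694 CPM in MMI16. The part of these cells in the values of the medulla genes was not tested.

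Of the 17 tested globin and red cell genes 16 had an estimate below 0 for pooled methimazole and 0 an unadjusted p under 0.05, with a median of -0.17. The median was -0.45 among the libraries numbered 41 to 56 and 0.32 among those numbered 61 to 90. All globins took 6.08 to 11.7% of counts in vehicle, 6.30 to 10.2% in MMI8 and 5.27 to 10.4% in MMI16, so the groups overlapped. The part of blood in the other values was not tested.

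Liver genes marked single libraries rather than groups. The 18 tested had a median log2 difference of -0.41 for pooled methimazole, 0.28 for MMI8 and -0.92 for MMI16, and no interval lay within 2-fold. The pooled median was 1.10 without vehicle library 44 and -1.68 without MMI8 library 45. The list summed to 305 to 24186 CPM in vehicle, 233 to 37612 CPM in MMI8 and 316 to 13583 CPM in MMI16.

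Leukocyte genes had a pooled median of 0.21 over 21 tested genes, of which 16 had an estimate above 0 and 0 an unadjusted p under 0.05. The median was 0.03 for MMI8 and 0.33 for MMI16, and without MMI8 library 45 the pooled one was 0.07. Mrc1, a receptor of tissue macrophages, was at 89.1, 160 and 193 CPM in vehicle, 76.7, 116 and 224 CPM in MMI8 and 65.9, 187 and 285 CPM in MMI16 (0.02, SE 0.27). Lyz2, the lysozyme gene of macrophages and neutrophils, had 0.24 (SE 0.20), and all 6 MMI16 libraries lay above its vehicle mean of 87.2 CPM. All 12 tested endothelial genes had intervals within 2-fold, with a median of 0.09. That median was 0.25 among the libraries numbered 41 to 56 and -0.23 among those numbered 61 to 90. Kdr, a receptor of vascular endothelial growth factor, averaged 261 ± 50.4 CPM in vehicle, 293 ± 46.2 CPM in MMI8 and 252 ± 48.4 CPM in MMI16 (SD, n = 6 each).

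Genes of general cell metabolism had medians near 0. The nuclear genes of mitochondrial respiration had estimates between -0.10 and 0.14 with a median of 0.02 over the 58 tested, and all 58 intervals lay within 2-fold. Their median was -0.07 among the libraries numbered 41 to 56 and 0.13 among those numbered 61 to 90. Ndufa4, a subunit of the respiratory chain, averaged 2230 ± 192 CPM in vehicle, 2193 ± 126 CPM in MMI8 and 2258 ± 162 CPM in MMI16, a difference of 0.00 (SE 0.06). The 22 tested cholesterol synthesis genes had a median of -0.03, the 25 genes of peroxide handling and Nrf2 targets 0.01, and the 20 glutathione transferases and other xenobiotic enzymes -0.06. Of these 3 lists, 19, 24 and 17 intervals in that order lay within 2-fold. The median of the peroxide and Nrf2 list was -0.10 among the libraries numbered 41 to 56 and 0.14 among those numbered 61 to 90. Cat, the catalase gene, averaged 136 ± 27.0 CPM in vehicle, 139 ± 20.7 CPM in MMI8 and 138 ± 36.9 CPM in MMI16 (SD, n = 6 each). None of these lists held a called gene, and 0, 0, 0 and 1 of their members in that order had an unadjusted p under 0.05.

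Growth and matrix genes had pooled medians near 0, which combined values of opposite sign in the 2 ranges of library numbers. The upper range held only 2 vehicle libraries. The median of the matrix genes was 0.37 among the libraries numbered 41 to 56 and -0.48 among those numbered 61 to 90, that of the imprinted and growth genes 0.32 and -0.45, and that of the proliferation genes 0.10 and -0.14. All 38 genes of cell proliferation were tested, with a median of 0.01 and 37 intervals within 2-fold. Mki67, a marker of cycling cells, was at 22.6, 33.2 and 59.9 CPM in vehicle, 13.8, 24.3 and 26.6 CPM in MMI8 and 22.2, 32.4 and 71.6 CPM in MMI16, so that all MMI8 libraries lay below the vehicle mean and the MMI16 libraries spanned it (-0.27, SE 0.21). The 20 tested imprinted and growth genes had a median of 0.00. Igf1, the gene of insulin-like growth factor 1, averaged 732 ± 341 CPM in vehicle, 1186 ± 574 CPM in MMI8 and 504 ± 158 CPM in MMI16 (SD, n = 6 each), with estimates of 0.72 (SE 0.53) and -0.55 (SE 0.54) at the 2 doses. The 24 tested matrix genes had a median of 0.00, -0.11 for MMI8 and 0.15 for MMI16, and the fibrillar collagen gene Col1a2 had -0.03 (SE 0.23).

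The difference from amitrole, a second inhibitor of thyroid peroxidase, was taken at GD21 with doses pooled (12 libraries each). edgeR called 0 of 6236 genes (0%), with a smallest adjusted p of 0.1495, and 871 (14%) had an unadjusted p under 0.05. DESeq2 called 26 genes, limma voom 135, and the fit of all 83 libraries 38. The doses of the 2 compounds differ (8 and 16 against 25 and 50 mg/kg body weight per day), and this comparison does not involve the vehicle libraries.

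The last question was whether the GD21 values differed from those of methimazole at the stage labelled PD16, where 10 vehicle, 10 MMI8 and 10 MMI16 libraries were made and no library is shared with GD21. In the joint fit of 83 libraries, 465 of 6287 genes (7.4%) were called for pooled methimazole at PD16, 438 of them lower (6.97%). These 438 had a median log2 difference of -1.33 at PD16 and 0.01 at GD21, where 241 lay above 0 and 197 below. At GD21 0 of the 438 were called and 16 had an unadjusted p under 0.05, against 1 and 136 of all 6287 genes. Their GD21 intervals lay within 2-fold for 426 (97.26%), against 94.54% of all genes. For 425 the GD21 interval did not reach the PD16 value, against 1238 of all 6287 genes. The 438 were selected on the PD16 value in the same fit, which raises that count and the last one of this paragraph. The test of the difference between the stages called 346 genes (5.5%), of which 338 (5.38%) had the lower methimazole difference at PD16, 8 (0.127%) had the higher one, and 334 of the 438 genes were among those called.

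Sox9, a transcription factor gene of progenitor and supporting cells, was at 21.5, 29.1 and 41.2 CPM (lowest, median, highest) in GD21 vehicle, 18.8, 34.3 and 57.6 CPM in MMI8 and 13.5, 25.3 and 74.6 CPM in MMI16. At PD16 it averaged 139 ± 51.7 CPM in vehicle, 26.0 ± 11.3 CPM in MMI8 and 13.4 ± 8.54 CPM in MMI16 (SD, n = 10 each). The GD21 groups overlapped, while at PD16 no methimazole library reached the vehicle range, and the joint log2 differences were 0.23 (SE 0.25) at GD21 and -3.03 (SE 0.21) at PD16, -3.26 (SE 0.34) apart with an edgeR adjusted p of 3.31e-13. Vtcn1, an immune checkpoint gene, averaged 19.6 ± 5.76 CPM in GD21 vehicle, 21.4 ± 8.49 CPM in MMI8 and 18.1 ± 8.73 CPM in MMI16 (SD, n = 6 each). The differences were -0.05 at GD21 and -3.51 at PD16.

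Several genes of other roles, named for such a contrast, had it too. Cirbp, a cold-inducible RNA-binding protein gene, had 0.13 at GD21 and -3.22 at PD16, Qrich1 0.33 and -3.12, and Ptx3, a secreted pattern recognition protein gene, 0.70 and -2.91. The matrix signalling gene Ccn1 had 0.55 and -2.89, Cpt1a -0.01 and -2.18, Kdr 0.06 and -1.63, and Mrc1 0.01 and -2.21. The difference between the stages was called for each of these 7 genes. They, Sox9 and Vtcn1 were named as largest called stage differences or from a list of genes known to be lower at PD16. Their calls therefore add no support to the counts above. Of the 27 genes called higher at PD16 (0.429%), whose median was 0.46 there and 0.00 at GD21, the difference was called for 3.

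Fam111a, Shc1 and Slc25a25 were among the genes with estimates farther from 0 at GD21 than at PD16. Shc1 was the only gene called at GD21 in the joint fit. Fam111a had 2.99 at GD21 and -0.36 at PD16, and the difference of -3.35 (SE 1.02) had an edgeR adjusted p of 0.0286. Its PD16 libraries ran from 5.38 to 120 CPM in vehicle, 4.39 to 74.0 CPM in MMI8 and 3.61 to 237 CPM in MMI16, so that wide spread was present there in every group. Shc1 had -2.12 at GD21 and 0.16 at PD16 (difference 2.28, SE 0.56, adjusted p = 0.00287). Slc25a25 had -0.82 at GD21 and 0.57 at PD16, neither of them called, while its difference between the stages was called. Tfcp2, by contrast, had negative estimates at both, with the larger at PD16 (-0.56 and -1.48).

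The stage labels go against a measurement that bears on this contrast. The embryonic globins took 0.0530 to 0.343% of globin counts in the 18 GD21 libraries, and 14.8 ± 2.51% in PD16 vehicle, 17.1 ± 2.82% in PD16 MMI8 and 16.4 ± 4.28% in PD16 MMI16 (SD, n = 10 each). In the PD16 amitrole libraries (11 and 12 for the lower and upper dose) the share was 0.0473 to 0.368%, as low as at GD21. These globins are made before birth, so the measurement casts doubt on the order of the 2 stages as labelled for vehicle and methimazole, the GD21 label of the 18 libraries included. The difference above is between groups as labelled. The labelled stages also differ in length of exposure. The part of age, length of exposure or tissue makeup in the difference was not tested.

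**Figure D5:**
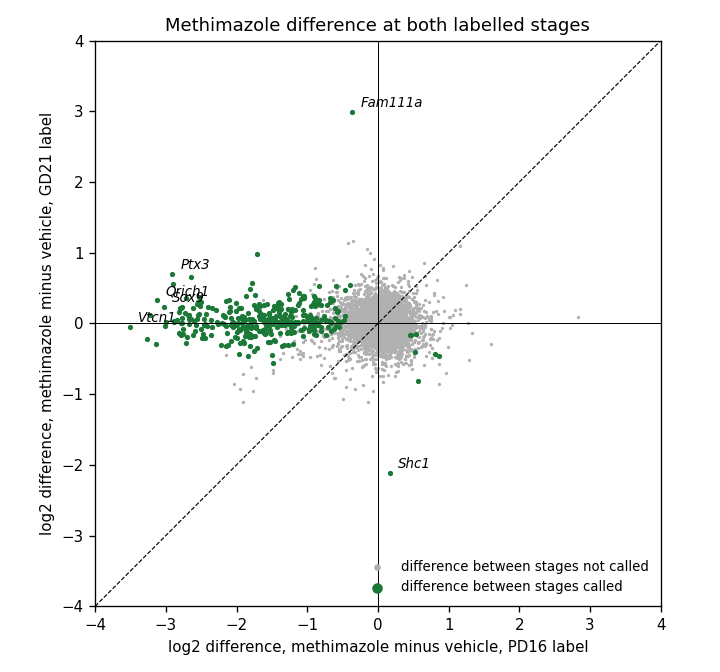
Log2 difference between methimazole and vehicle at the stage labelled PD16 (horizontal) and at GD21 (vertical) for the 6287 genes of the joint fit, with green points for the 346 genes whose difference between stages was called and a dashed line of equal values. The 338 genes with the lower value at PD16 lie mostly along the horizontal axis, near 0 at GD21, and Fam111a and Shc1 lie off it.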

How the data were processed

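The table deposited by the authors gives, per the labels, raw counts for 17483 gene symbols in 83 libraries. Reads were aligned with BWA 0.7.4.4 to rn6, per the submitters' processing notes. Which tool counted them, on what annotation, whether by strand and whether by molecule is not given in the sources used here. Groups came from the sample titles. Counts of the 30 GD21 libraries were filtered with filterByExpr (minimum count 10), scaled with TMM factors and tested with edgeR 4.0.16 quasi-likelihood fits in R 4.3.3, all 5 groups together; pooled methimazole is the mean of both doses. The comparison of stages used 1 fit of all 10 groups. DESeq2 1.42.0 and limma 3.58.1 (voom) were alternatives. The test was also run on simulated counts of independent libraries with known differences. That simulation held no effect of litter, liver transcripts or library number range, so it does not bear on those, and its outcome is not reported here. Of the 6236 genes tested, 6091 matched a RefSeq rat symbol and 106 more a synonym. CPM are counts scaled to a library total of 1000000. Intervals at zero counts cover counting error only. In 45 pairs of libraries within the 3 groups, none was a copy of another by a chi-square over genes. Named genes were those with the smallest p of at least 20 CPM, the most abundant members of each list and the thyroid genes. Genes listed beforehand as lower or higher at PD16 and the largest called stage differences were also named. The rest were added after their values were seen. The libraries, lists and genes were chosen with earlier results of these data known. Some genes that the naming rule covers are not reported here.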

Additional observations from a re-analysis of the deposited data

Results flagged for a closer look

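Single libraries stood apart from the other 5 of their group in 10 of 69 sets of values examined. The rule would flag about 1 set in 20 if values were normal and sets independent. CPM are skewed, some libraries recur, and some of the genes were already named from these libraries. The count of flags was therefore not tested against chance. In vehicle, Alb was at 5319 CPM in library 44 (others at most 1929), Lmna at 38.3 CPM in library 62 (others at most 25.0), and the total count was 1627000 in library 41 (rounded; others at most 1161000). In MMI8, Alb was at 10980 CPM (rounded) and Fam111a at 98.9 CPM in library 45, where the others reached 1382 and 35.8 CPM, and Shc1 was at 102.5 CPM in library 69, where the others reached 15.4 CPM. In MMI16, Cyp11a1 was at 20110 CPM (rounded) in library 48, and Thra at 19.4 CPM, Mki67 at 71.6 CPM and Lmna at 71.6 CPM in library 47. The methimazole difference was called different between the labelled stages for 346 genes, as described above.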

How the results depend on the processing

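Over 30 alternatives for pooled methimazole, edgeR, DESeq2 or voom called 0 genes in 29, with 114 to 513 genes at an unadjusted p under 0.05. The exception was the fit of all 83 libraries of both stages, chosen after seeing the data, which called 1 gene for pooled methimazole and 1 for MMI16 (Shc1 in both). MMI8 and the comparison of doses had 0 calls in all 24 and 22 alternatives, and MMI16 in 23 of 24. Amitrole against methimazole had 0 calls in edgeR and 26 with DESeq2, 135 with voom and 38 with the fit of 83 libraries; the cause was not tested. The difference between stages was called for 296 to 370 genes over 9 alternatives. Leaving out each replicate in turn kept 0 calls in the 3 comparisons with vehicle and in that of the doses. Of 153 named genes, 93 changed the sign of an uncalled estimate in at least 1 of 30 settings. Dropping libraries with totals below 0.5 of the median over all 30 GD21 libraries removed none, so it gave no value. No paired analysis was possible because the groups share no replicate numbers. Depth limits genes of a few CPM, where 1 count can be a large share of the value.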
